A study of Rattus norvegicus with 6 samples.

Results

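The data of 9 genes that neurons switch on when they fire, whose products act at the synapse, are secreted or feed back on the response, were followed through the nucleus accumbens of heroin-experienced rats. The members were every row of the gene table whose symbol was Homer1, Arc, Bdnf, Vgf, Scg2, Nptx2, Sik1, Crem or Tiparp, and 9 of the 25629 genes met this rule, 1 row for each symbol. They were compared between saline and naloxone in each cell class, with the library as the replicate.

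Adult Sprague-Dawley rats, 90 to 120 days old, self-administered heroin for 7 days at 1 response per infusion and 4 days at 3 responses, did a progressive-ratio session on day 12, and returned to 3 responses on days 13 and 14. After the last session they received saline or naloxone, an opioid receptor antagonist, and tissue was taken 1 h later. Nuclei from 12 rats, 6 male and 6 female, went into 6 libraries (3 saline, numbered 1 to 3, and 3 naloxone, numbered 4 to 6), each pooling male and female tissue. All 6 libraries come from rats that had taken heroin, so the comparison is of naloxone with saline on top of the same heroin history. The labels do not say which rats went into which library, so p-values measure the spread between these pools.

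The 9 genes belong to the transcriptional response of neurons to activity. Calcium and cyclic AMP signalling in an active neuron phosphorylates the transcription factor CREB, which acts at the DNA element TGACGTCA and switches on immediate early genes, among them inducible factors such as Fos, Npas4 and the Egr proteins and effectors such as Arc. Another is Homer1, a postsynaptic scaffold whose short, activity-induced form uncouples group I glutamate receptors from their partners. Arc drives removal of AMPA receptors, Nptx2 is a secreted pentraxin that clusters them, Bdnf is the ligand of the TrkB receptor, and Vgf and Scg2 are granin-family precursors of secreted peptides. Sik1 is a kinase that holds back the CREB coactivators, and Crem is a CREB relative with an inducible repressor form. Tiparp is a mono-ADP-ribosyltransferase that restrains the aryl hydrocarbon receptor. The counts used here are per gene, so the forms of Homer1 and of Crem were not told apart.

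The CREB element was looked for in RefSeq promoters of the rat GRCr8 assembly, because CREB acts at this sequence. Each promoter was 300 bases long (250 before and 50 after a transcription start). Of the 9 members, 8 had an entry, with 15 promoters in all; Arc did not. The 8-base element TGACGTCA reads the same on both strands and was present in 3 of the 8 members (Scg2, Vgf and Crem), against 2.00% of the 27457 genes in the table, and in 4 of their 15 promoters, against 612 of all 33469 (1.83%). Its shorter core, TGACG or CGTCA on the other strand and overlapping the full element wherever that occurs, was in 6 of the 8 members, against 23.0% of genes (21.2% of promoters). The searched promoters of Homer1 and Tiparp held neither the element nor its core. A match describes the letters in the window and is not evidence of binding. The stretches around the element in the secreted precursors Scg2 and Vgf are shown 5′ to 3′ on the minus strand, with the element in capitals.
Scg2: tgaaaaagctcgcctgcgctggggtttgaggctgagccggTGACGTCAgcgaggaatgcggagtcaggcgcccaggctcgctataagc
Vgf: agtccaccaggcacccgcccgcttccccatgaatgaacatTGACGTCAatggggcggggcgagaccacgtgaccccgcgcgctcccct

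The Scg2 stretch lies at chr9:88256942-88257029 and its element begins 123 bases before the start of transcription. The Vgf stretch lies at chr12:25277063-25277150 and its element begins 90 bases before the start. Crem had 3 copies over its alternative starts, beginning 56 and 35 bases before a start and, for the last, after it. These coordinates are of GRCr8; the submitters' processing notes name mRatBN7.2 as the build of the deposited counts, which is why no position is given for the measured genes.

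The files held 64260 barcodes and between 55739350 and 76272798 UMIs (unique molecular identifiers, each 1 captured RNA molecule) per library. After filters 58960 nuclei were used, and 463 of 63796 distinct barcode sequences occurred in more than 1 library. The labels speak of 44592 nuclei. Of 40 clusters, 25 were named from marker lists and hold 42233 nuclei, and 8 were mixed. The 6 clusters without a name and the 1 led by Inpp5d, which carried all 6 microglia markers but was too shallow to be named, were kept apart. The classes that matter most here were Drd1-like spiny neurons (8131 nuclei, median 9026 UMIs), Drd2-like spiny neurons (5103, median 8400), Chst9-like (3021) and Casz1-like (2221) spiny neurons, astrocyte-like nuclei (4599) and oligodendrocyte-like nuclei (11665, median 1625). Spiny neurons are the GABA projection neurons of the accumbens. Oligodendrocyte-like nuclei came from unlike clusters in the 2 groups: cluster 15 held 11 to 55 nuclei per saline library and 550 to 867 per naloxone library.

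Homer1 was the member with a called naloxone response, and the class was the Chst9-like spiny neurons. Its level there, in CPM (UMIs of the gene over all UMIs of the class in that library, scaled to a total of 1000000), was 171, 190 and 167 in the saline libraries and 273, 245 and 208 in the naloxone libraries. Every naloxone library lay above every saline library, as was so for 5.95% of all genes tested. The mean went from 176 ± 12 to 242 ± 32 CPM (SD, n = 3), a log2 change of 0.47 (SE 0.09, edgeR quasi-likelihood test, adjusted p = 0.0302). The class had 16 called genes of 11170 tested (0.143%; 0.0716% called higher), and 1 of the 5 members tested there was among them. The call was lost in each fit that left out a library other than naloxone replicate 6 (adjusted p up to 0.215), without robust estimation of the spread (0.0747), at 1000 detected genes per nucleus (0.0813), and with coarser clusters (log2 change 0.13, adjusted p = 0.551). When nuclei were instead assigned by a gate on their own marker UMIs, Chst9-like Homer1 averaged 243 CPM after saline and 248 CPM after naloxone (log2 change 0.03, adjusted p = 0.899).

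Markers of other cells moved in the same Chst9-like sums. The 6 microglia markers together were at 34.0 to 39.2 CPM in saline and 40.02 to 60.76 CPM in naloxone libraries, each of the 6 with a higher mean after naloxone. The ependymal markers together were at 8.63 to 9.89 and 12.9 to 16.9 CPM, with 1 of 4 at 0. Somatostatin interneuron markers went the other way, from 22.6 to 23.1 CPM down to 17.99 to 20.04. Their part in the Homer1 result was not tested.

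**Figure D1:**
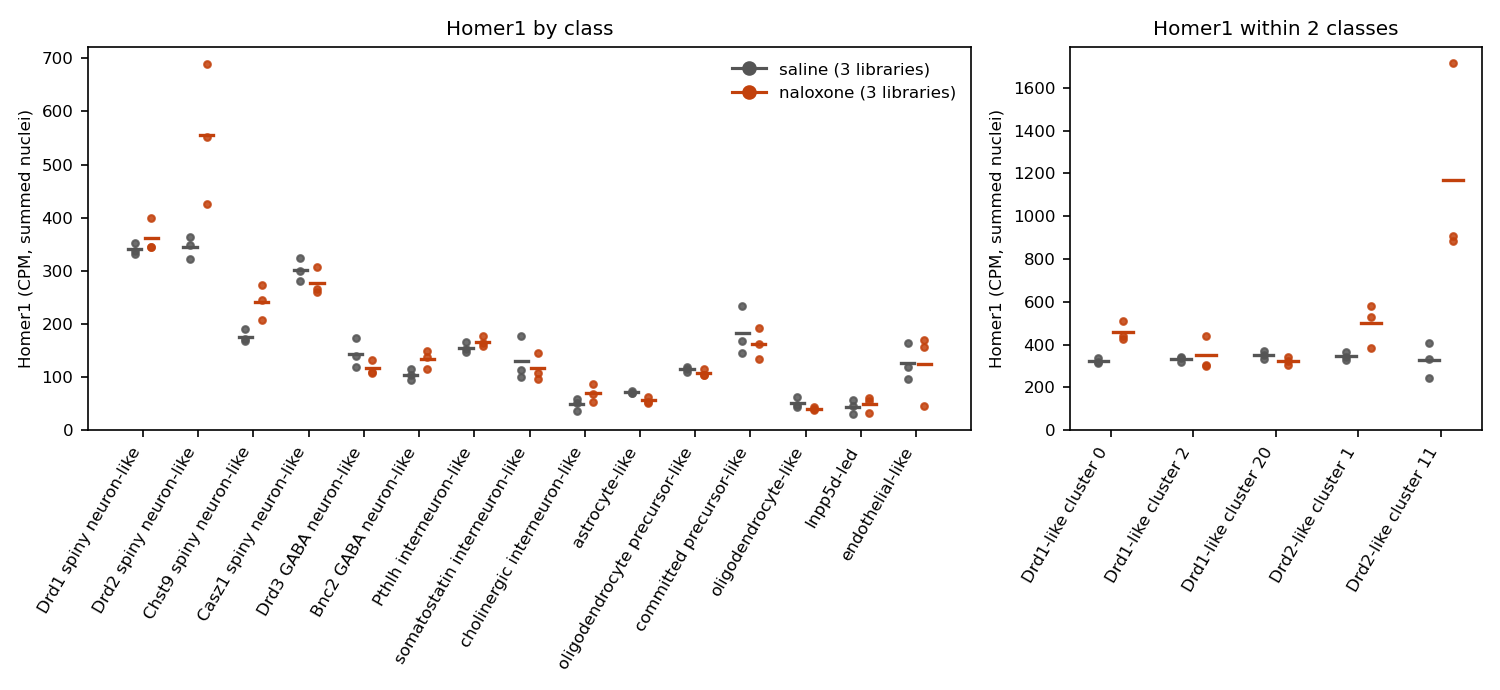
Homer1 in each of the 6 libraries, in CPM of the summed UMIs, by class (left) and by cluster of the Drd1-like and Drd2-like classes (right); points are libraries and short lines the group means. The naloxone libraries lie above the saline libraries in Chst9-like, Drd2-like and Bnc2 GABA neuron-like nuclei and in clusters 0, 1 and 11. They lie below them in astrocyte-like and oligodendrocyte-like nuclei.

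In Drd2-like spiny neurons, the striatal output cells that carry the D2 receptor, Homer1 was at 348, 322 and 364 CPM after saline and at 426, 552 and 688 CPM after naloxone. The groups did not overlap, and the naloxone libraries were far apart from each other. The means were 345 ± 21 and 555 ± 130 CPM (SD, n = 3) and the log2 change 0.71 (SE 0.18), which did not pass the test across genes (edgeR, unadjusted p = 0.00548, adjusted p = 0.177). Leaving out naloxone replicate 4 gave 0.87 (adjusted p = 0.00299), leaving out naloxone replicate 6 gave 0.50 (adjusted p = 0.0333), and the fit without robust estimation gave an adjusted p of 0.0458. Here 8 members were tested and 0 were called, against 54 of 12494 genes (0.432%). The other tool, DESeq2, also called 0. Groups were apart in 2 of the 8 members, Homer1 and Vgf, both higher after naloxone, as they were in 7.24% of all genes in that direction. Other class markers in the same sums overlapped between groups, except the ependymal list at 2.06 to 2.87 against 3.21 to 5.19 CPM and the neuroblast list at 76.1 to 82.5 against 85.2 to 86.1 CPM.

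Drd1-like spiny neurons as a whole gave no such shift. Homer1 was at 331, 338 and 352 CPM after saline and 344, 399 and 344 CPM after naloxone, overlapping, with a log2 change of 0.08 (edgeR adjusted p = 0.642). In Casz1-like spiny neurons it was at 300, 281 and 324 CPM and then 260, 307 and 266 CPM, a log2 change of −0.11. Bnc2 GABA neuron-like nuclei, 226 in all, gave 0.42 with the groups apart (edgeR unadjusted p = 0.0451, adjusted p = 0.807). The share of all genes apart there is not given. The naloxone effect on Homer1 was 0.62 larger in Drd2-like than in Drd1-like nuclei on the log2 scale (edgeR class by treatment term, unadjusted p = 0.0384), a difference that did not pass over all genes (adjusted p = 0.531; 88 of 13415 genes did, 0.656%). Without naloxone replicate 6 the same difference was 0.41 with an adjusted p of 4.67e-05. Drd2-like and Chst9-like neurons differed by 0.23 (adjusted p = 0.938) and Drd1-like from Chst9-like by −0.39 (adjusted p = 0.238).

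The Drd1-like class was made of 3 clusters, and fitting each by itself, chosen after the data were seen, gave unlike Homer1 values. In cluster 0, led by Ebf1 and holding 2214 nuclei, Homer1 rose from 318, 313 and 336 to 439, 509 and 427 CPM, with no overlap (7.8% of all genes in that direction) and a log2 change of 0.51 (SE 0.08, edgeR adjusted p = 0.00201; 35 of 10926 genes called, 0.32%). Leaving out saline replicate 2 raised the adjusted p to 0.0605, and it stayed at or below 0.0198 without any other library. In cluster 2, led by Plcz1 and Drd3 with 1702 nuclei, it was at 341, 336 and 317 and then 301, 440 and 307 CPM. The largest, cluster 20 with 4215 nuclei, had 335, 350 and 370 and then 306, 343 and 321 CPM, a log2 change of −0.13. The effect in cluster 0 was larger than in cluster 20 by 0.64 (SE 0.07, adjusted p = 5.43e-09; 23 of 12073 genes, 0.191%) and larger than in cluster 2 by 0.43 (SE 0.08, adjusted p = 0.0100; 11 of 11254 genes, 0.0977%). The second difference was lost without saline replicate 1 (adjusted p = 0.109) or naloxone replicate 6 (0.0987). Clusters 2 and 20 differed by 0.20 (adjusted p = 0.972).

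Within the Drd2-like class, the small cluster 11, led by Itga11 and holding 420 nuclei (50 to 118 per library), had the widest Homer1 spread. It was at 409, 246 and 334 CPM after saline and 906, 885 and 1717 CPM after naloxone, apart in every library (8.21% of all genes in that direction), with a log2 change of 1.90 (SE 0.41, edgeR adjusted p = 0.14). Of 6771 genes tested in this cluster, 228 were called (3.37%, with 2.47% higher), and 0 of its 5 tested members were. Naloxone replicate 6 stood far above the others, and without it Homer1 changed by 1.48 (SE 0.15, adjusted p = 1.16e-06); without robust estimation of the spread all 6 libraries gave an adjusted p of 4.03e-05. The main cluster of the class, cluster 1 with 4683 nuclei, had 344, 329 and 367 CPM and then 386, 530 and 581 CPM, a log2 change of 0.55 (adjusted p = 0.168; 0.341% of genes called). The effects of these clusters differed by 1.33 (SE 0.29, adjusted p = 0.276).

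In astrocyte-like nuclei the Homer1 difference did not pass the test and its direction depended on how nuclei were assigned. The values were 70.7, 70.1 and 72.9 CPM after saline and 63.1, 53.6 and 51.3 CPM after naloxone, without overlap, as was so for 11.3% of all genes in that direction (log2 change −0.32, edgeR adjusted p = 0.351). Oligodendrocyte-like nuclei gave −0.34, also without overlap (edgeR adjusted p = 0.425). With the gate on marker UMIs both turned, to 0.17 in astrocyte-like nuclei (136 CPM after saline and 150.2 after naloxone) and 0.27 in oligodendrocyte-like nuclei (97.9 and 120.1 CPM). Values stayed close in oligodendrocyte precursor-like nuclei, at 110, 115 and 118 and then 105, 104 and 116 CPM. Set against Drd2-like neurons, the effect was 1.02 lower in astrocyte-like nuclei (difference −1.02, SE 0.20, adjusted p = 0.0394; 39 of 13123 genes, 0.297%). In precursor-like nuclei it was 0.78 lower (difference −0.78, SE 0.14, adjusted p = 0.00265; 28 of 12478 genes, 0.224%). For oligodendrocyte-like nuclei the difference was −0.997 (adjusted p = 0.0569). Leaving out naloxone replicate 6 ended the precursor call (adjusted p = 0.0766), which held without any other library. The astrocyte call was lost without any 1 of the saline libraries and without naloxone replicate 5 or 6 (adjusted p up to 0.18). It held only without naloxone replicate 4.

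The spread of Homer1 over single nuclei was read in nuclei with at least 2000 UMIs. In Drd2-like neurons 2.15, 1.84 and 2.85% of nuclei exceeded 1000 CPM of Homer1 after saline, and 5.16, 10.0 and 9.75% did so after naloxone. The groups were apart (2.28 ± 0.516% against 8.31 ± 2.73%, SD, n = 3, two-sided exact permutation p = 0.1, the smallest that 3 against 3 libraries allow). The median nucleus moved less, from 273 to 325 CPM, while the 5% of nuclei with the most Homer1 held 22.7% of its UMIs after saline and 36.0% after naloxone. In Chst9-like neurons 0.25, 0.751 and 0.233% of nuclei exceeded 1000 CPM after saline and 1.57, 2.42 and 1.00% after naloxone. The groups were apart (two-sided exact permutation p = 0.1), but with 399 to 666 nuclei per library each share rests on few nuclei. The medians there, 135 and 144 CPM on average, overlapped between the groups (two-sided exact permutation p = 0.4). In Drd1-like neurons the shares were 2.67% and 3.06%. A single Drd2-like nucleus held up to 430 Homer1 UMIs.

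Homer1 was detected in most spiny neurons under both treatments. The share of Drd2-like nuclei with a Homer1 UMI was 86.9% after saline and 89.8% after naloxone, at median depths of 8215 and 8602 UMIs. Thinned to 1000 UMIs per nucleus it was 26.1% and 31.7% (two-sided exact permutation p = 0.1). Drd1-like nuclei gave 85.8% and 86.0%, or 26.1% and 26.4% after thinning. In oligodendrocyte-like nuclei, the class with the lowest Homer1 level, the share was 7.05% and 6.40%.

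Arc, which removes AMPA receptors from the synapse, was scarce in nuclei. Drd2-like neurons held 105 Arc UMIs in all, at 2.06, 1.23 and 1.27 CPM after saline and 1.79, 2.68 and 4.63 CPM after naloxone. The groups overlapped, with naloxone replicate 6 highest (log2 change 1.10, SE 0.38, edgeR unadjusted p = 0.0113, adjusted p = 0.238). In Drd1-like neurons the change was −0.59 (adjusted p = 0.455). The difference between the classes was 1.69 (SE 0.46, unadjusted p = 0.000779, adjusted p = 0.0792), and without naloxone replicate 5 it was 2.17 (adjusted p = 0.0442).

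The regulators among the members were Sik1, Crem and Tiparp. Sik1, the kinase that restrains CREB coactivators, was at 3.97, 4.41 and 5.27 CPM in Drd2-like neurons after saline and 3.94, 7.77 and 9.13 CPM after naloxone (log2 change 0.65, edgeR adjusted p = 0.311). In cluster 0 of the Drd1-like class it was at 2.83, 1.53 and 4.54 and then 5.2, 6.67 and 6.52 CPM, apart in every library but not called (1.11, adjusted p = 0.245). Crem, whose short form represses CREB targets, stayed level in the class where it was highest: oligodendrocyte-like nuclei had 78, 89.1 and 76.7 CPM after saline and 79, 76.8 and 90.8 CPM after naloxone, a log2 change of 0.02 (adjusted p = 0.975).

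Tiparp, the ADP-ribosyltransferase, was not called in any planned fit. Casz1-like neurons had 12.4, 15.5 and 9.38 CPM after saline and 6.73, 6.79 and 6.56 CPM after naloxone, apart in every library (log2 change −0.88, SE 0.26, edgeR unadjusted p = 0.00274, adjusted p = 0.22). It was the 1 member of 6 tested there whose groups were apart, where 7.85% of all genes were apart in that direction. In the same sums microglia markers were at 22.5 to 29.5 against 35.9 to 45.4 CPM and endothelial markers at 0.569 to 1.22 against 1.38 to 3.37 CPM, and their part in the Tiparp values was not tested. In Drd2-like neurons Tiparp was at 15.6, 16.8 and 17.3 CPM after saline and 12.9, 16.6 and 45.5 CPM after naloxone. Only naloxone replicate 6 stood above the saline libraries there (log2 change 0.65, adjusted p = 0.707; without that library −0.16). Drd1-like neurons had 11.6, 11.7 and 11.9 and then 9.46, 10.4 and 11 CPM. Tiparp was the 1 of 8 members tested in that class whose groups were apart (9.86% of all genes in that direction). In Drd1-like neurons 0 members were called by edgeR or DESeq2, against 0.352% of genes by edgeR.

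The secreted members were Bdnf, Vgf, Scg2 and Nptx2. Vgf, the peptide precursor shown above with its CREB element, was at 8.83, 8.21 and 9.18 CPM in Drd2-like neurons after saline and 9.67, 13.6 and 14.7 CPM after naloxone. The groups were apart, by a log2 change of 0.57 that was not called (edgeR adjusted p = 0.173). Scg2, the other precursor shown, was at 80.9, 65.7 and 73.4 and then 74.7, 90.5 and 107 CPM in the same cells, overlapping (0.34, adjusted p = 0.294). Nptx2 in those neurons gave −0.90 (adjusted p = 0.405).

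**Figure D2:**
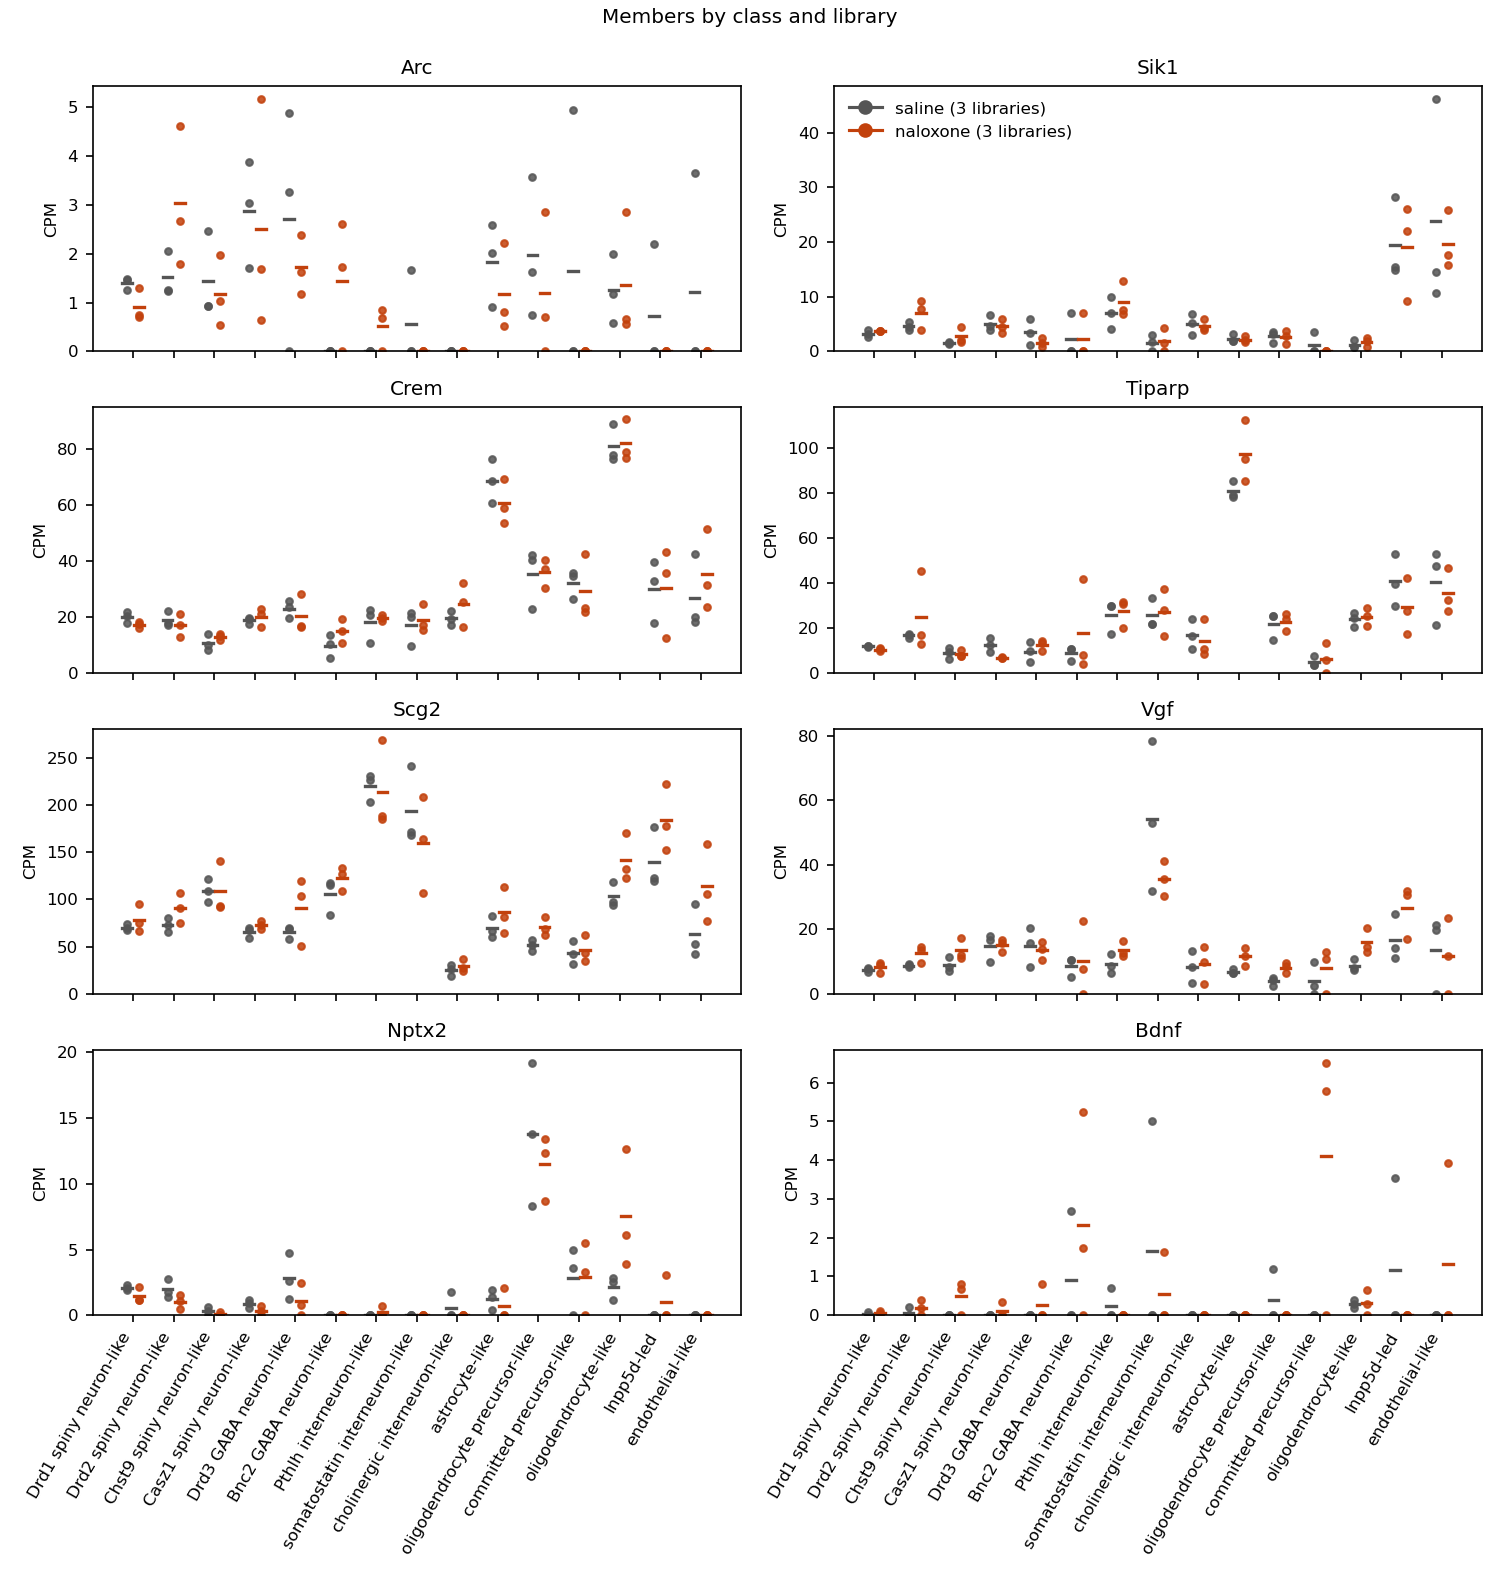
The other 8 members by class and library, in CPM of the summed UMIs of the class; points are libraries, coloured by treatment, and short lines the group means. Crem is highest in oligodendrocyte-like and Tiparp in astrocyte-like nuclei, Vgf in somatostatin interneuron-like nuclei (31.8 to 78.3 CPM after saline), and Bdnf is at or near 0 in spiny neurons.

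In glial sums no secreted member passed the test in a planned fit. In oligodendrocyte-like nuclei Vgf was at 8, 10.8 and 7.49 CPM after saline and 13.1, 20.4 and 14.5 CPM after naloxone (log2 change 0.84, edgeR unadjusted p = 0.00298, adjusted p = 0.136). Scg2 was at 94, 118 and 97.2 and then 132, 170 and 123 CPM (0.44, adjusted p = 0.113). Nptx2 was at 2.8, 1.17 and 2.56 and then 3.92, 12.7 and 6.13 CPM (1.67, adjusted p = 0.147). All 3 were apart between groups, 3 of 6 tested members in a class where 8.96% of all genes were apart in that direction. There 0 members were called by edgeR, against 1.06% of genes, and DESeq2 called 0 as well. Clusters 12 and 15 of the class fell under 20 nuclei in a library. Cluster 12 held 18 nuclei in naloxone replicate 5, against 627 and 400 in naloxone replicates 4 and 6. Cluster 15 held 11 in saline replicate 1. Without both clusters, Scg2 gave 0.49 (adjusted p = 0.207) and Vgf 1.06 (adjusted p = 0.155). Cluster 14 of the class, fitted alone after the data were seen, had 122, 141 and 164 CPM of Scg2 after saline and 194, 256 and 227 CPM after naloxone. Scg2 rose there by 0.63 (SE 0.14, adjusted p = 0.0293; 56 of 8572 genes called, 0.653%), a call lost in 4 of the 6 fits that left out 1 library (adjusted p up to 0.194).

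Some marker lists of other classes were also apart between the groups in these glial sums. In the oligodendrocyte-like sums the somatostatin interneuron markers were at 17.3 to 19.3 CPM after saline and 30.1 to 35.7 CPM after naloxone, the precursor markers at 78.4 to 89.3 and 104 to 136 CPM, and the endothelial markers at 1.6 to 4.69 and 5.02 to 7.76 CPM. Every other neuronal list overlapped between groups there. The part of these markers in the Vgf, Scg2 and Nptx2 values was not tested. Astrocyte-like nuclei had Vgf at 6.48, 7.66 and 6.34 and then 8.79, 14.4 and 11.8 CPM (log2 change 0.79, edgeR adjusted p = 0.305), the 1 of 5 members that was higher and apart, where 6.42% of all genes were. In the same sums somatostatin interneuron markers went from 10.4 to 16.9 CPM up to 17.1 to 19.7, glutamatergic markers from 1.297 to 3.628 up to 5.53 to 7.32, and microglia markers from 69.4 to 79.8 up to 87.1 to 119. In precursor-like nuclei Scg2 was at 57.2, 52 and 45.1 and then 62.9, 81.8 and 68.7 CPM (0.48, adjusted p = 0.3), the 1 of 5 members apart (6.16% of all genes), while the Drd1 marker list was at 76.3 to 104 and 106 to 164 CPM.

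**Figure D3:**
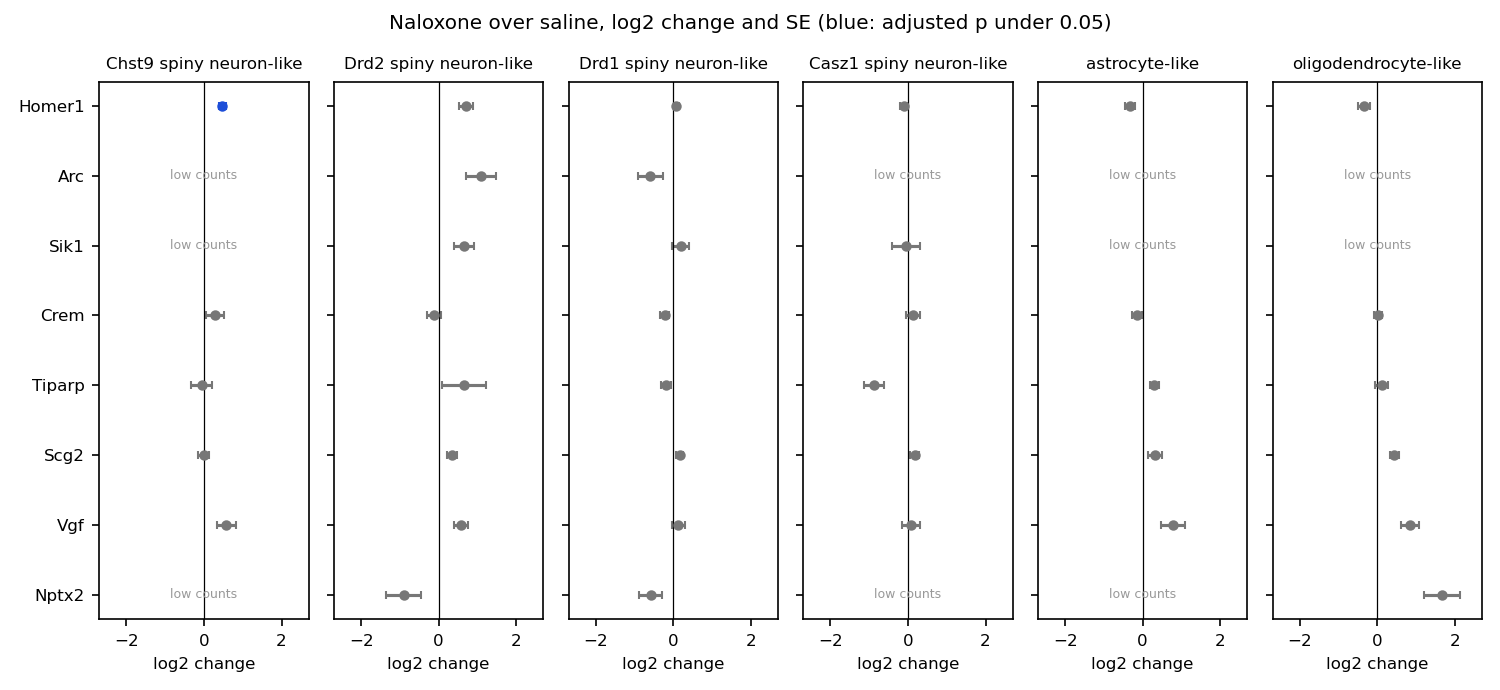
Log2 change, naloxone over saline, of 8 members in 6 classes, with standard errors as bars; members below the filter on low counts are marked as such. The called value, Homer1 in Chst9-like neurons (0.47), is blue, and in Drd2-like neurons 6 of the 8 points lie above 0.

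Bdnf was close to absent from spiny neurons, with 3 UMIs in all Drd1-like and 6 in all Drd2-like nuclei. Over all nuclei it had 423 UMIs, at 0.678, 0.628 and 1.05 CPM after saline and 1.7, 0.715 and 1.82 CPM after naloxone, overlapping (log2 change 0.86, edgeR unadjusted p = 0.0403, adjusted p = 0.336). Sums over all nuclei also move with the share of each class. In those sums 9 members were tested and 0 called, against 14 of 17342 genes (0.0807%). The unnamed cluster 8, with 3251 nuclei and led by Plscr5, Col6a2, Qrfpr and Gpr139, held 48.9% of all Bdnf UMIs: 16, 9 and 29 in the saline libraries and 64, 8 and 81 in the naloxone libraries, from 390, 563 and 474 and 780, 519 and 525 nuclei. Naloxone replicate 5 was therefore below every saline library, while the other naloxone libraries were the highest. Its level there was 6.61 CPM (95% exact Poisson interval 5.74 to 7.57, counting error only). The unnamed cluster 37, with 310 nuclei led by Igf1, Slc17a6, Nr2f2 and Glp1r, held a further 19.4% at 28.5 CPM (22.6 to 35.3).

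The members had different home classes. By the mean of the 6 libraries, Homer1 was highest in Drd2-like neurons at 450 CPM, followed by Drd1-like at 351, Casz1-like at 290 and Chst9-like at 209 CPM, and lowest in oligodendrocyte-like nuclei at 45.6 CPM. Crem ran the other way, with 81.7 CPM in oligodendrocyte-like, 64.7 in astrocyte-like and 35.6 in precursor-like nuclei and 11.8 CPM in Chst9-like neurons. Tiparp was highest in astrocyte-like nuclei at 89.4 CPM, ahead of endothelial-like nuclei at 38 CPM.

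Peptide precursors were highest in interneurons. Scg2 was at 217 CPM in Pthlh-like and 177 CPM in somatostatin interneuron-like nuclei, and Vgf at 45 CPM in the latter, where its libraries ranged from 31.8 to 78.3 CPM after saline and from 30.3 to 41 CPM after naloxone (log2 change −0.56, edgeR adjusted p = 0.737). Nptx2 was highest in precursor-like nuclei at 12.6 CPM, Sik1 among the tested classes in endothelial-like nuclei at 21.8 CPM (above the next, Inpp5d-led, in 2 of 6 libraries), and Arc in Casz1-like neurons at 2.69 CPM. The 196 mural-like nuclei, too few to be tested, had Sik1 at 55.5 CPM (95% exact Poisson interval 34.4 to 84.9). Neighbours in these orders were compared by a sign-flip exact permutation test over 6 libraries, which cannot give an unadjusted p under 0.03125. After adjustment over 126 comparisons it could hardly pass, so its 0 passes (smallest adjusted p = 0.5625) do not decide the orders. Of the 126 comparisons, 7 had the same sign in all 6 libraries. These included Homer1 in Drd1-like over Casz1-like nuclei, Crem in oligodendrocyte-like over astrocyte-like nuclei and Tiparp in astrocyte-like over endothelial-like nuclei. UMIs of different genes also depend on their 3′ ends, so levels were ordered within a gene only.

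The genes whose level over the 15 classes was most like a member's were ranked by Pearson's r over 12608 genes, as a description with no test. For Homer1 they were Mpp7 (r = 0.923), Camk4 (0.895) and Kcnab1 (0.885). Crem was closest to Gsta6 (0.971), Scg2 to Slc32a1 (0.913), the vesicular GABA transporter, and Vgf to Npy (0.813), the neuropeptide of somatostatin interneurons. Tiparp was closest to Stk38l (0.892), Sik1 to Lmo2 (0.876) and Nptx2 to Slc4a5 (0.864). Arc and Bdnf were too low for the ranking.

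The members were also read in nuclei that carried a sign of recent activity, at least 1 UMI of Fos, Fosb, Npas4 or Egr4: 336 Drd1-like and 269 Drd2-like nuclei. These were deeper than the others of their class, with medians of 9369 against 8338 UMIs in Drd2-like nuclei. Homer1 stood at 1434 ± 1128 CPM in active and 379 ± 72 CPM in other Drd2-like nuclei (SD, n = 6 libraries), and at 922 ± 287 and 326 ± 16 CPM in Drd1-like nuclei. The ratios of 3.79 and 2.83 were 3.95 and 2.63 when nuclei were thinned to 2000 UMIs and activity was called on the thinned counts, with Homer1 higher in 6 of 6 libraries in both classes. Of 18 pairs of member and class, 11 were higher in active nuclei in 6 of 6 libraries, the smallest sign-flip exact permutation p being 0.03125 (the smallest possible) and the smallest adjusted value 0.0511, so 0 passed.

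Arc and Tiparp had the steepest ratios before thinning. Arc was at 21.1 CPM in active and 0.990 CPM in other Drd2-like nuclei, and at 9.45 and 0.803 CPM in Drd1-like nuclei. Tiparp was at 126 against 13.1 CPM and at 52.2 against 9.13 CPM. Sik1 was at 22.9 against 4.48 CPM in Drd2-like and 14.0 against 2.99 CPM in Drd1-like nuclei, and Scg2 at 240 against 70.8 and 141 against 71.3 CPM. After thinning, Tiparp was higher in active nuclei in 5 of 6 libraries for Drd1-like and 4 of 6 for Drd2-like nuclei, Scg2 in 5 of 6 for both, and Arc and Sik1 each in 1 of 6 and 3 of 6, with as few as 8 active nuclei left in a library. The thinned ratios of Arc were 9.85 in Drd1-like and 12.4 in Drd2-like nuclei and those of Sik1 1.69 and 8.34, so for both genes the means kept a ratio above 1 that few libraries carried. Crem differed least among these, at 36.1 against 16.7 CPM in Drd2-like nuclei, higher in 4 of 6 libraries.

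**Figure D4:**
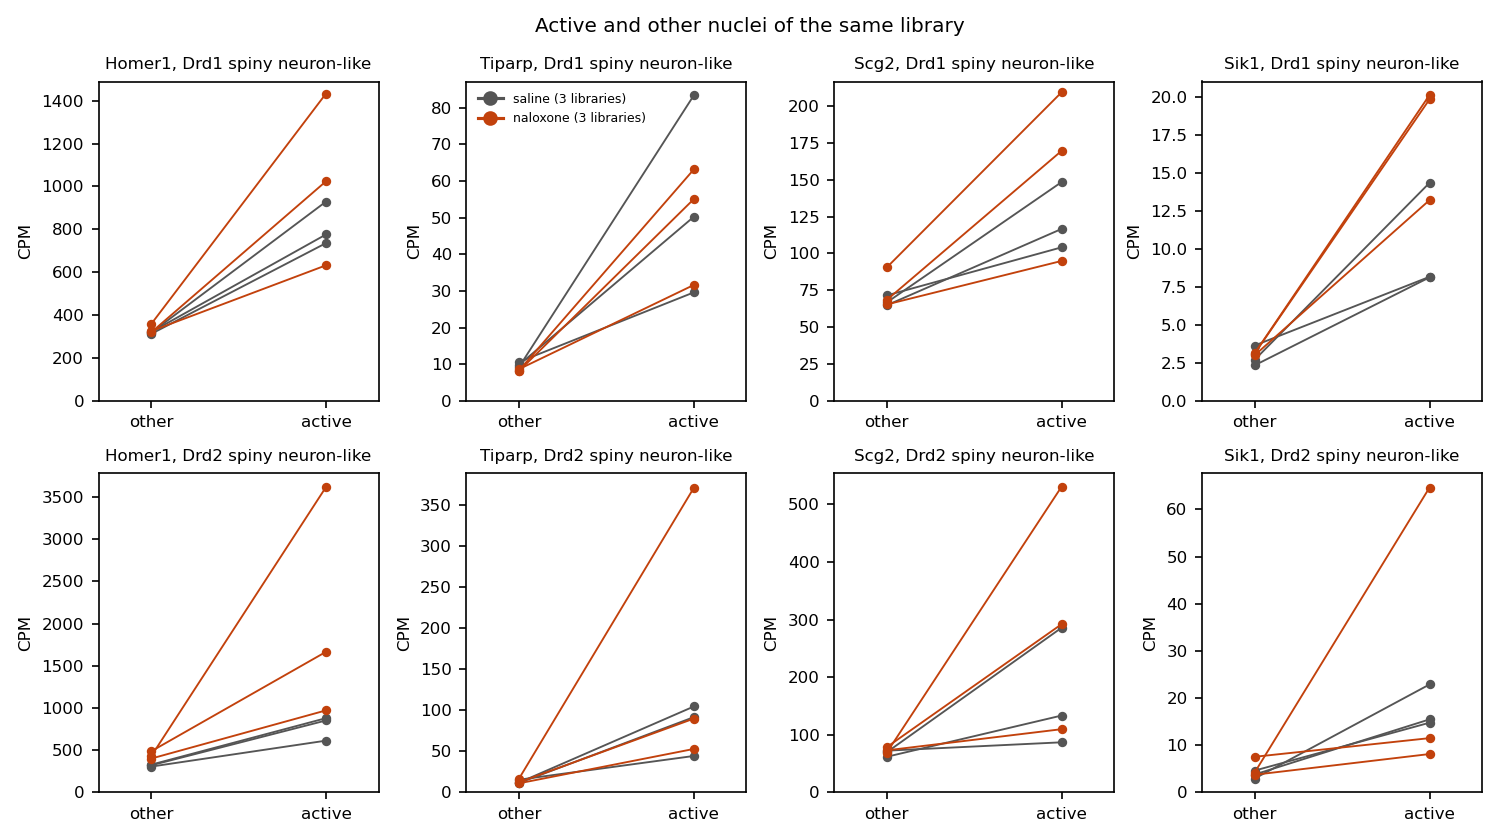
Homer1, Tiparp, Scg2 and Sik1 in active nuclei (at least 1 UMI of Fos, Fosb, Npas4 or Egr4) and in the other nuclei of the Drd1-like (top) and Drd2-like (bottom) classes, in CPM; each line joins the 2 values of a library. All lines rise, and naloxone replicate 6 is at the top in active Drd2-like nuclei (Homer1 at 3619 CPM).

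Homer1 was also compared between naloxone and saline libraries in each kind of Drd2-like nuclei, with as few as 29 active nuclei in a library. Egr4, among the genes that mark active nuclei, was itself called higher after naloxone in this class (log2 change 2.29, edgeR adjusted p = 0.0194). The choice of active nuclei was therefore not independent of treatment. In the active ones Homer1 was at 853, 614 and 880 CPM after saline and 972, 1666 and 3619 CPM after naloxone. In the others it was at 321, 306 and 328 and then 401, 487 and 428 CPM. The groups were apart in both, at 318 ± 11 against 439 ± 44 CPM in the nuclei without those UMIs (SD, n = 3). The two-sided exact permutation p was 0.1 in each kind, the smallest that 3 against 3 libraries allow. The share of all genes apart was not computed for each kind, and was 7.24% in that direction over the whole class. Tiparp in active Drd2-like nuclei was at 91.6, 105 and 44.3 and then 52.9, 89.8 and 370 CPM, so that naloxone replicate 6 alone lay above the saline libraries. The share of active nuclei in the Drd2-like class was 4.16, 4.81 and 5.92% after saline and 4.48, 4.94 and 8.44% after naloxone, overlapping (exact permutation p = 0.6). Thinned to 2000 UMIs it averaged 1.24% and 2.34% (exact permutation p = 0.2). In thinned Drd1-like nuclei it went the other way, from 0.973, 1.16 and 1.34% to 0.958, 0.875 and 0.8%. Those groups were apart (exact permutation p = 0.1), with as few as 8 active nuclei in a library. In active Drd1-like nuclei Homer1 averaged 814 and 1030 CPM and the groups overlapped.

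Other genes of the pathway came from lists drawn up with the members, with earlier results of these data known. Counts and medians over a list are descriptions without a test. The scaling of the libraries itself holds the median of all genes near 0. Among granins, convertases and pentraxins, the partners of Vgf and Scg2 in the secretory pathway, 2 of 10 tested rose in Drd2-like neurons (0.272% of all genes did) and 9 of 10 changes were positive (median log2 change 0.32, against 0.00 over all genes). Chga, chromogranin A, rose from 51.9, 49.4 and 50.1 to 71.3, 87.3 and 76.6 CPM, a log2 change of 0.66 (SE 0.09, edgeR adjusted p = 0.00289). Cpe, carboxypeptidase E, which trims peptide precursors, rose from 202, 214 and 196 to 249, 280 and 296 CPM (0.45, adjusted p = 0.0222). Chga also rose in Drd1-like neurons, from 49.2, 48.7 and 48.7 to 67.7, 70.4 and 59.3 CPM (0.42, adjusted p = 0.0335). The Chga call in Drd2-like neurons held in all 6 fits that left out 1 library; those for Cpe and for Chga in Drd1-like neurons were each lost in 4 of 6 (adjusted p up to 0.145 and 0.186).

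The lists upstream of the members held few calls. Of 10 activity-regulated transcription factors tested in Drd2-like neurons, 8 had a positive change (median 0.36) and 1 rose: Egr4, from 1.03, 0.513 and 1.06 to 2.15, 5.61 and 4.37 CPM (log2 change 2.29, SE 0.40, edgeR adjusted p = 0.0194, lost in 4 of the 6 fits that left out 1 library). Of 9 CREB coactivators and kinases 0 were called there, and in astrocyte-like nuclei 1 was: Crtc3, a coactivator that Sik kinases restrain, from 135, 125 and 118 to 150, 216 and 162 CPM (0.51, adjusted p = 0.0471; 0.935% of genes called there; up to 0.189 and under 0.05 in 1 of the 6 fits that left out 1 library). In Drd2-like neurons 0 of 8 Homer binding partners, 0 of 5 BDNF receptors and relatives, 0 of 14 other activity-regulated effectors and 0 of 2 genes of the aryl hydrocarbon receptor axis were called. The 8 members tested in that class had a median change of 0.61, and in Drd1-like neurons −0.06, where all genes tested had 0.00 in both. These medians were not tested. The members share the same libraries and were chosen with earlier results of these data known.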

How the data were processed

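Nuclei from the nucleus accumbens were measured by droplet single-nucleus RNA sequencing in 6 libraries (10x GEM-X 3′ chemistry, per the labels' protocols). The deposited values are raw UMI counts per gene and barcode, with no normalization. The submitters' processing notes name Cell Ranger 9.0.1, Seurat 5.2.1, R 4.4.0 and the build mRatBN7.2, and the labels give about 23000 reads per nucleus. The annotation release and the counting of intron reads are not given in the sources used here.

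The filters of 500 detected genes (minimum) and 5% mitochondrial UMIs (maximum) left 61609 nuclei, and 2649 called doublets (4.30%, from simulated pairs at an expected 0.4% per 1000 nuclei) were removed. Nuclei were clustered with scanpy 1.11.5 (3000 variable genes, 40 components, 15 neighbours, Leiden resolution 1) with the members and listed genes left out. Clusters were called X-like from markers, at least 3 of them detected, and the authors' own annotation was not used here. UMIs were summed per library and class with at least 20 nuclei in every library, and tested with edgeR 4.0.16 (quasi-likelihood, TMM factors, default filter on low counts, robust, no covariate, 3 against 3 libraries) with Benjamini-Hochberg adjustment over all genes of a fit and a threshold of 0.05. CPM are UMIs of a gene over all UMIs of the class and library, scaled to 1000000. Differences of effect between classes were tested as an interaction of class and treatment, each library entering as a block. On data simulated for each class, 200 genes changed by 1 on the log2 scale were recovered at 84.5% in Drd1-like, 83.5% in Drd2-like and 79.5% in Chst9-like nuclei. Recovery was 72% in oligodendrocyte-like, 71% in astrocyte-like, 53% in cholinergic interneuron-like and 50.5% in Inpp5d-led nuclei. It was 15.5% in committed precursor-like and 0.5% in endothelial-like nuclei, so these classes could hardly show such a change. Smaller changes, such as those of Homer1 in whole classes, were not simulated.

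The text gives full statistics for called members, and the other members in chosen fits. Many tested pairs of member and class are left out. Among highest classes without a change above, Tiparp in astrocyte-like nuclei had a log2 change of 0.30 (edgeR adjusted p = 0.342). Scg2 in Pthlh-like nuclei had −0.05 and Nptx2 in precursor-like nuclei −0.32. Genes of the other lists are named when called (at most 4 per list and fit), and the 3 genes closest in pattern to each member were ranked among genes with at least 10 CPM in a class. The main statistics of clusters fitted alone, and values singled out in other classes, were chosen after they were seen. The members and lists were chosen with earlier results of these data known. Alternatives to the test were DESeq2 1.42.0, RLE scaling, dropping the low-count filter and leaving out libraries in turn; alternatives to the classes were a minimum of 1000 genes, keeping called doublets, coarser clusters (Leiden resolution 0.5) and a gate on marker UMIs in each nucleus. Added after seeing the data were the fit without robust estimation and fits of single clusters.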

Additional observations from a re-analysis of the deposited data

Results flagged for a closer look

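The naloxone effect on Homer1 differed between classes past the test in 4 comparisons (edgeR class by treatment term, adjusted over all genes). It was −1.02 in astrocyte-like nuclei relative to Drd2-like neurons and −0.78 in oligodendrocyte precursor-like nuclei relative to Drd2-like neurons, both on the log2 scale. Within the Drd1-like class it was 0.43 larger in cluster 0 than in cluster 2 and 0.64 larger in cluster 0 than in cluster 20, in comparisons of clusters added after the data were seen. The astrocyte difference was lost in every fit that left out 1 library except the fit without naloxone replicate 4. The precursor difference was lost only without naloxone replicate 6. That of cluster 0 against cluster 2 was lost without saline replicate 1 or naloxone replicate 6. The last held in all 6 such fits (adjusted p up to 4.39e-05). Groups of 3 libraries were too small to be tested for a library far from the others.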

How the results depend on the processing

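No paired analysis was possible because the saline libraries are numbered 1 to 3 and the naloxone libraries 4 to 6, so the groups share no replicate number. Of the log2 changes under an alternative, 589 kept their direction and side of the threshold, 13 newly passed it, 9 no longer did and 19 reversed. These cover Homer1 and other members with a low unadjusted p in a planned fit, and nearly all were uncalled from the start. All 9 losses were of the same call, Homer1 in Chst9-like neurons. The call of 1 member in Chst9-like neurons became 0 without robust estimation, at 1000 genes per nucleus, at Leiden resolution 0.5 and with the marker gate (Homer1 0.03), and 0 to 1 when a library was left out. The 0 members called in Drd2-like neurons became 1 without robust estimation, 2 with no filter on low counts and 0 to 1 when a library was left out. Oligodendrocyte-like nuclei went from 0 to 3 with no filter, 1 in cluster 14 alone and 0 to 1 when a library was left out. Drd1-like neurons gave 1 in cluster 0 alone, all spiny neurons 1 with DESeq2, and Drd3-like neurons and all nuclei 0 to 1 when a library was left out.

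Members whose effect differed numbered 0 to 1 over the fits without a library for Drd2-like against Drd1-like neurons, for astrocyte-like, oligodendrocyte-like and precursor-like nuclei against Drd2-like neurons, and for cluster 0 against cluster 2, and 0 to 2 for cluster 11 against cluster 1. The Homer1 change reversed in Drd1-like neurons at 1000 genes (−0.0095), at Leiden resolution 0.5 (−0.0069) and in cluster 20 alone (−0.13). With the marker gate it reversed in Drd3-like neurons (0.0028), astrocyte-like (0.17), oligodendrocyte-like (0.27) and somatostatin interneuron-like nuclei (0.55), as did Vgf in Pthlh-like nuclei (−0.36). Homer1 was 0.31 in oligodendrocyte cluster 13 alone. Fits without a library ranged from −0.053 to 0.38 in Inpp5d-led, −0.32 to 0.023 in committed precursor-like, −0.35 to 0.16 in somatostatin interneuron-like and −0.25 to 0.39 in endothelial-like nuclei. Endothelial-like nuclei gave −0.0063 with no filter and −0.41 with doublets kept, and committed precursor-like nuclei 0.20 with doublets kept. The Drd2-like minus Chst9-like difference was −0.061 without naloxone replicate 6 and up to 0.51 without another library. Among level orders, Arc in Casz1-like minus Drd2-like neurons became −0.63 CPM and Scg2 in Pthlh-like minus somatostatin interneuron-like nuclei −21.9 CPM with the marker gate, and Sik1 in endothelial-like minus Inpp5d-led nuclei −3.23 without saline replicate 3 and −0.38 without naloxone replicate 4 (up to 5.68 without others). The cause of these moves was not tested.

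Counts of all genes called moved more than those of members: 54 in Drd2-like neurons became 381 with no filter on low counts, 118 with DESeq2, 21 with the marker gate and 14 to 115 without a library. In Chst9-like neurons 16 became 125, 18, 30 and 2 to 30, in Drd1-like neurons 48 became 266, 106, 1 and 3 to 142, and in oligodendrocyte-like nuclei 121 became 396, 170, 31 and 31 to 141. Depth limits Arc and Bdnf, which no class held in quantity, and the endothelial-like class.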

Other observations

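Cluster 11 of the Drd2-like class, led by Itga11, changed in listed genes that no planned comparison covered, and it is described here after its values were seen. Ntrk2, which encodes TrkB, the receptor of Bdnf, rose from 690, 671 and 662 to 1363, 1746 and 2170 CPM (log2 change 1.43, SE 0.14, edgeR adjusted p = 2.23e-06). Every naloxone library lay far above the saline libraries, and the change was 1.22 without naloxone replicate 6. Sik2 and Sik3, the relatives of the member Sik1, rose by 1.16 (adjusted p = 0.000119) and 0.74 (adjusted p = 0.000425), while Prkacb of the same list, a catalytic subunit of protein kinase A, fell by 0.54 (adjusted p = 0.0439). Cpe rose by 0.77 (adjusted p = 0.000408). Kdm6b, a histone H3 lysine demethylase induced by activity, rose by 1.80 (adjusted p = 0.00854), a call lost without naloxone replicate 6 (adjusted p = 0.205), saline replicate 2 or saline replicate 3. In this cluster 2.47% of tested genes were called higher. Over the whole Drd2-like class Ntrk2 gave 0.73 (adjusted p = 0.149) and was not called.

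Cluster 14 of the oligodendrocyte-like class, where Scg2 rose, had a median of only 1123 UMIs per nucleus. It also had higher Chga (0.91, edgeR adjusted p = 0.00534) and Chgb (0.60, edgeR adjusted p = 0.0293). Chga stayed under an adjusted p of 0.05 in all 6 fits that left out 1 library, which were not run for Chgb.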
